A study of Mus musculus with 2 samples.

Results

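The Hox genes of clusters a, b, c and d were examined in 2 libraries of iHFSC2, a mouse hair follicle stem cell line that has been immortalized. Members were all rows whose gene name was Hox, a cluster letter from a to d and a number, which gave 25 of 22383 genes. The annotation holds 39 such genes, and the other 14 are not analysed here (Hoxa11 and Hoxa13, 5 of cluster c, 7 of cluster d). The control library came from cells infected with lentivirus carrying the empty vector, and the other from cells infected with lentivirus carrying pwslv-shcircSmad5, a short hairpin against the circular RNA circSmad5. Both lines received puromycin from day 4 after infection and were established at day 15. No control hairpin was included, and with 1 library per group the hairpin, the selection of each line and the library cannot be told apart. No difference reported here has a replicate check.

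Hox genes encode homeodomain transcription factors that give cells along the body axis their regional identity. Within each cluster, genes with low group numbers are used toward the head and genes with high numbers toward the tail and the ends of the limbs. Dermal fibroblasts are known to keep a regional Hox pattern in culture, and Hoxc13 is also needed for the hair shaft. Hox proteins bind DNA together with partners of the PBX and MEIS families, and Polycomb and trithorax complexes hold the clusters off or on.

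The cells carried the basal keratinocyte markers of their label but only some of its bulge markers. In scaled counts (CPM, the count relative to the scaled library total), Krt5 was at 5376 with the empty vector and at 5728 with shcircSmad5, the order kept for all pairs of values here. Among basal markers, Krt14 had 162982 and 226645 counts (log2 ratio 0.45) and Krt15 had 253 and 79, 3.27-fold lower. Among bulge markers, Sox9 had a log2 ratio of -0.77, Runx1 one of 0.42 and Nfatc1 one of -0.18. Cd34 and Lgr6 had 0 counts in both libraries, which allows 0.0781 and 0.0765 CPM at a limit of 3 counts, and Lhx2 had 4 and 5 counts. Total gene counts were 39261010 and 38382081. Smad5, the host gene of circSmad5, had 3109 and 3413 counts, which do not measure the circular form.

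The homeodomain is shared by all members, so the part of its recognition helix that contacts DNA shows how alike the genes are there. The lines give 10 codons of that helix (GENCODE M21 transcripts, GRCm38, coding strand), with the 5 codons for the conserved tryptophan, phenylalanine, glutamine, asparagine and arginine in capitals, for Hoxa6 and Hoxa10, which had the largest fold differences among members with at least 20 counts, the 2 most abundant ones, and Hoxc13.
Hoxa6: aagatcTGGTTCCAGAATCGGcgcatgaag
Hoxa10: aaaatcTGGTTTCAGAATCGCaggatgaaa
Hoxa7: aagatcTGGTTCCAGAATCGGcgcatgaag
Hoxb9: aaaatcTGGTTTCAGAACCGGcggatgaaa
Hoxc13: accatcTGGTTCCAGAATCGAcgcgtgaaa
They lie at chr6:52206440-52206469 (minus), chr6:52232569-52232598 (minus), chr6:52215858-52215887 (minus), chr11:96274794-96274823 (plus) and chr15:102927345-102927374 (plus), each within a coding exon. These 30 bases are identical in Hoxa6, Hoxa7 and Hoxb4, and 21 of the 25 genes encode the same 10 residues there. Hoxa2, Hoxb2, Hoxb13 and Hoxc13 encode other residues. Hoxa6 and Hoxb6, of the same group, differ at 3 of the 30 bases, and Hoxb9 and Hoxc13 at 7. Identical stretches of 50 bases were rare. Of all 50-base words in its transcripts, Hoxa6 shared 0.364% with another Hox gene (Hoxb4), and Hoxa10, Hoxb5 and Hoxa7 shared 0% with any. The length of 50 was a choice made here, and words with mismatches were not searched. Whether reads were confused between members was thus not tested.

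Hox expression in both libraries was carried by group 7 and group 9 genes of clusters a and b, with Hoxc13 also among the leading members. The deposited FPKM values, which divide counts by gene length and library total, allow a rough comparison of levels between genes. The length used equalled all annotated exonic bases of a gene (5580 for Hoxa9, 1544 for Hoxb7). A gene expressed as a shorter transcript is thus understated, and which transcripts were expressed was not read. Hoxb9 had the highest level, at FPKM 10.2 with the empty vector and 7.29 with shcircSmad5. Hoxa7 followed at 7.10 and 6.25. These are moderate levels, at percentiles 78.6 and 73.2 of all genes in the empty vector library. Hoxc13, a regulator of hair keratin genes, was at 3.34 and 3.28. Hoxb7 was at 2.54 and 2.43 and Hoxa9 at 2.26 and 2.01.

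**Figure D1:**
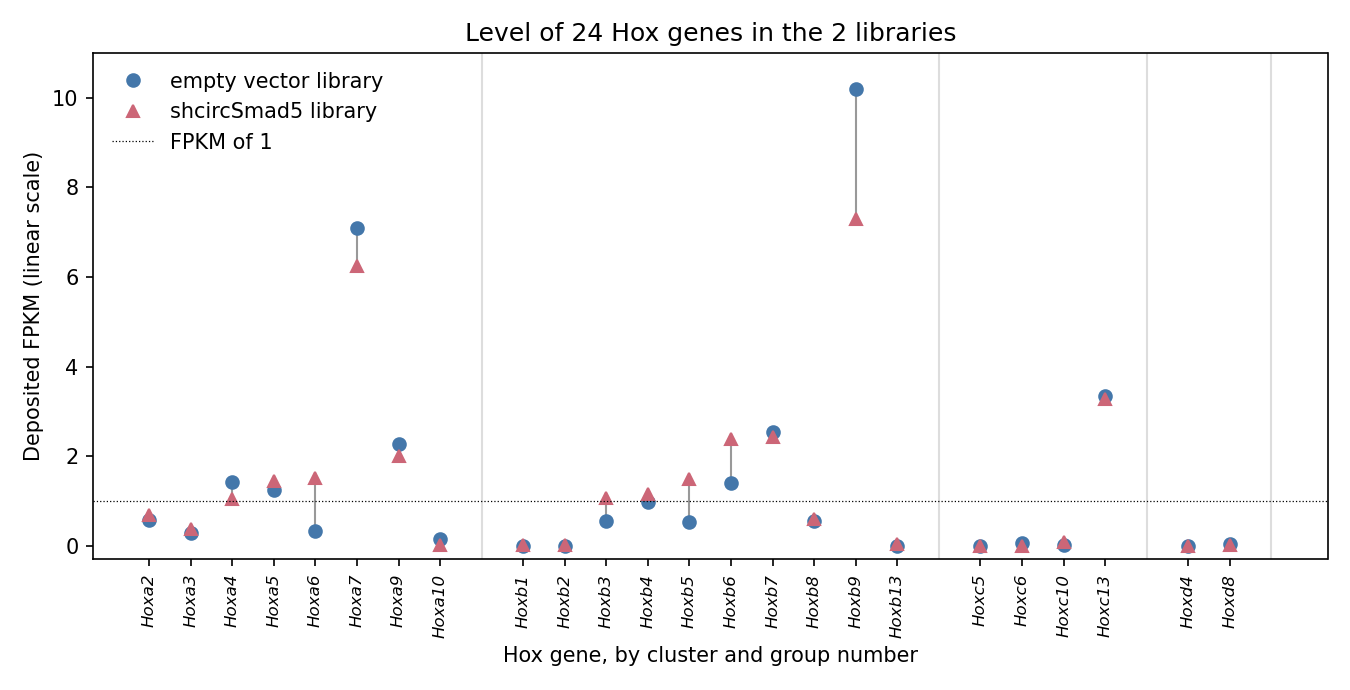
Deposited FPKM of 24 Hox genes, ordered by cluster and group number on the horizontal axis, with a circle for the empty vector library and a triangle for the shcircSmad5 library. Hoxb9 (10.2 and 7.29) and Hoxa7 (7.10 and 6.25) stand above all others in both libraries, and both members of cluster d lie near 0.

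A minimum of 20 counts in at least 1 library was met by 17 of the 25 members: 9 of cluster a, 7 of cluster b, 1 of cluster c and 0 of cluster d. Hoxa6 (11 and 51 counts) and Hoxa10 (20 and 3) reached that minimum in 1 library only, so a difference was built into their selection. The other 8 members had at most 6 counts in either library. Hoxc6 had 6 and 0 counts, at least 2.04-fold lower against a floor of 3 counts. Hoxc10 had 1 and 6 counts, Hoxb13 0 and 4, Hoxd8 3 and 2, Hoxb2 0 and 2, and Hoxb1 0 and 1. Hoxc5 and Hoxd4 had 0 in both. Among the members read here, those beyond group 9 were thus near the floor, apart from Hoxc13 and the 20 counts of Hoxa10. In bulk RNA, fewer cells that express a gene and less RNA per cell cannot be told apart.

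The Hox total differed little between the libraries, while its make-up moved from groups 7 to 9 toward lower groups. All members summed to 3839 and 3706 counts, or 99.9 and 94.5 CPM after TMM scaling, a log2 ratio (shcircSmad5 over empty vector) of -0.08 (95% counting interval -0.15 to -0.02). Cluster a summed to 49.6 and 46.8 CPM, cluster b to 41.6 and 39.6, and cluster c to 8.59 and 8.06. Cluster a held 49.6% and 49.5% of the Hox counts and cluster b 41.7% and 41.9%, so the balance between clusters was nearly the same in both libraries. Without Hoxb9 and Hoxa7, the remaining 23 members summed to 52.2 and 58.5 CPM, a log2 ratio of 0.16 (0.08 to 0.25), so the sign of the total rests on these 2 genes. With summed FPKM in place of counts, the log2 ratio of the total was 0.018.

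The intervals reflect counting error alone, since there was 1 library per group. No molecular identifiers were used and reads can be copies of the same molecule, so the intervals may be too narrow even for that. The 15 members of groups 1 to 6 summed to 24.8 and 34.1 CPM, a log2 ratio of 0.46 (0.34 to 0.58), and went from 24.8% to 36.0% of the Hox counts. The 6 members of groups 7 to 9 summed to 66.2 and 52.2 CPM, a log2 ratio of -0.34 (-0.43 to -0.26), and went from 66.2% to 55.2%. The 4 members of groups 10 to 13, nearly all Hoxc13, held 8.96% and 8.72%. These ranges of groups were chosen after the values were seen. The bar chart of shares shows that Hoxb9 alone went from 26.9% to 19.4%.

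**Figure D2:**
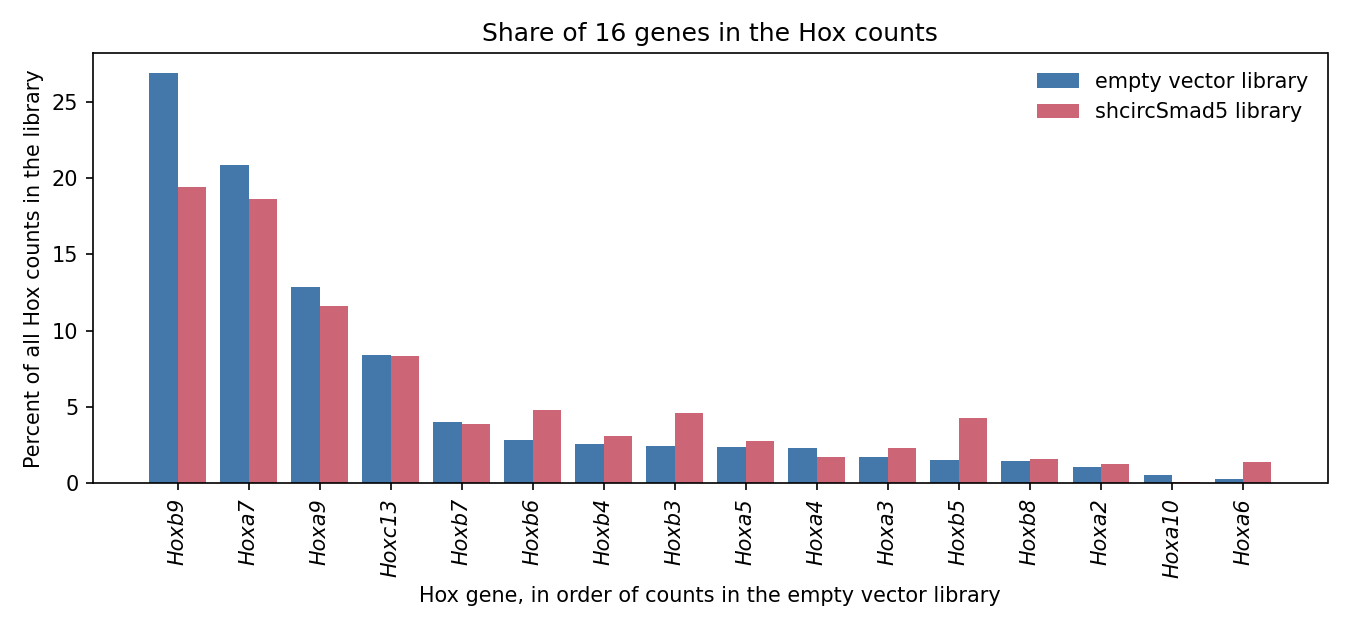
Share of 16 members with at least 20 counts in all Hox counts of its library, in percent, as paired bars. Hoxb9 falls from 26.9% to 19.4% and Hoxb3, Hoxb5 and Hoxb6 each take a larger share in the shcircSmad5 library, while Hoxc13 stays at 8.41% and 8.36%.

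A size rule called a gene higher or lower when it met the minimum of 20 counts, its values differed 2-fold or more, and its counting interval left out a ratio of 1. Of the 17 members with the minimum, Hoxa6 and Hoxb5 were higher and Hoxa10 was lower. Among all 13596 genes with the minimum, 8.43% were higher and 6.24% lower (14.7% in all), so the share of Hox genes called is near the background. The members' median log2 ratio was 0.15, beside -0.02 over all genes. It was 0.000226 once each ratio was centred at the median of its chromosome. At 1.5-fold, 4 members were higher (Hoxa6, Hoxb3, Hoxb5, Hoxb6), beside 13.9% of all genes, and 1 was lower, beside 12.9% (26.8% in all). At 3-fold, Hoxa6 was higher, beside 4.35%, and Hoxa10 lower, beside 3.1% (7.45% in all). Among the 6803 genes within the members' range of counts (20 to 1031), 15.7% were higher and 9.69% lower, with a median of 0.09.

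**Figure D3:**
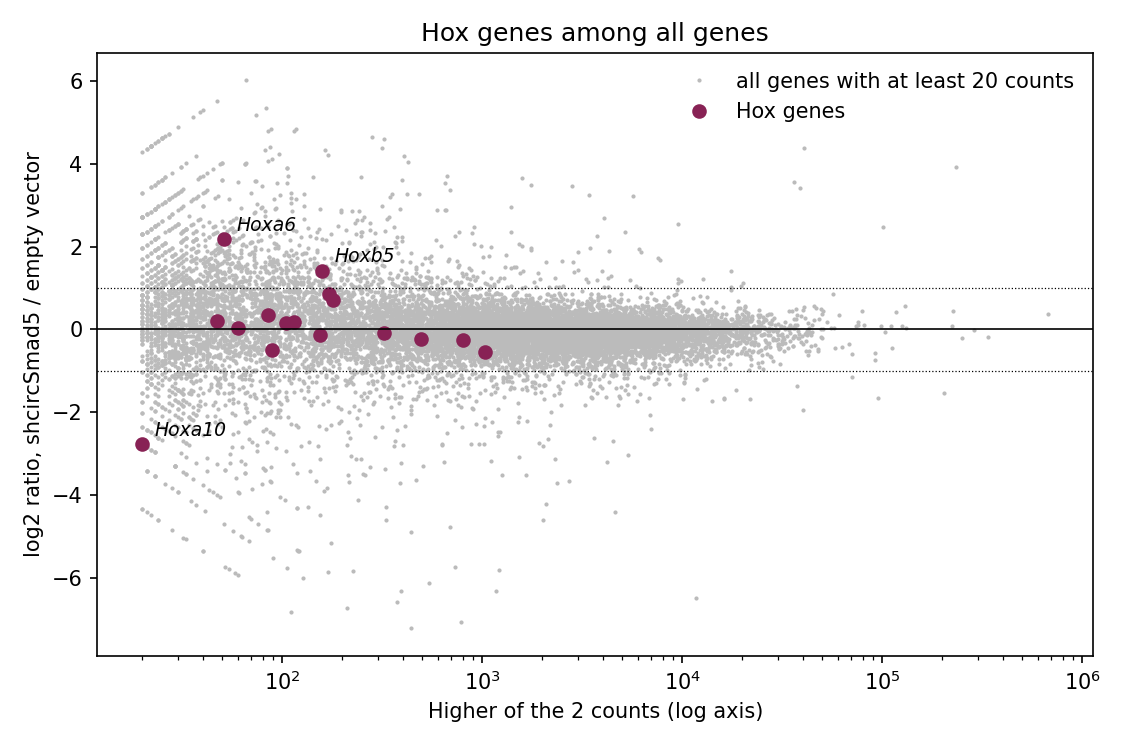
Log2 ratio (shcircSmad5 over empty vector) of 13595 genes that met the minimum of 20 counts (grey) and of 16 Hox genes (purple), against the higher of both counts on a log axis. A count of 0 is drawn at the floor of 3, and dotted lines mark 2-fold. Hoxa6, Hoxb5 and Hoxa10 lie outside the dotted lines, within the spread of other genes with few counts.

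In cluster a (chromosome 6, GRCm38), Hoxa6 was the one member higher by the size rule, and both of its neighbours differed by less than 2-fold. Hoxa6 (ENSMUSG00000043219, 52206288 to 52208722, minus strand), a regulator of trunk patterning, had 11 and 51 counts. It was 4.54-fold higher (2.34 to 9.66), on FPKM of 0.321 and 1.52. Hoxa5, on one side, a gene of lung development, had 92 and 104 counts and a log2 ratio of 0.15 (-0.27 to 0.57). Hoxa7, on the other, had 802 and 690 and a log2 ratio of -0.25 (-0.40 to -0.10). No exonic base of Hoxa6 lies under an exon of another annotated gene on either strand. The gene does lie within the wider spans of Hoxa3 (same strand) and Hoxaas3 (opposite strand). Whether reads from their introns were counted for Hoxa6 was not tested.

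Hoxa10 (ENSMUSG00000000938, 52231197 to 52240854), known for its role in the uterus and the limb, had 20 and 3 counts. It was 6.81-fold lower with a wide interval (2.02 to 35.8), at FPKM of 0.156 and 0.0239. The empty vector count is the minimum itself, so the call is lost with any higher minimum. On the log2(FPKM + 0.1) scale, which understates changes of low genes, the log2 ratio was -1.05 in place of -2.77. Hoxa9, next to it, a gene of blood progenitors and leukaemia, had 495 and 431 counts, a log2 ratio of -0.23 (-0.42 to -0.04).

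The remaining genes of cluster a differed by less than 2-fold. Hoxa2, a gene of hindbrain and neural crest patterning, had 40 and 47, and Hoxa3, of the pharyngeal arches, 66 and 85. The intervals of Hoxa2 and Hoxa3 both spanned 0. Hoxa4 had 89 and 64 counts (log2 ratio -0.51, -0.99 to -0.03). Of the exonic bases of Hoxa3, 25.4% lie under exons of the opposite strand, and of those of Hoxa7 20.4% lie under exons of Hoxaas3. Reads there cannot be assigned with certainty where counting ignored strand, and the setting used is not stated in these sources.

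The stretches just upstream of Hoxa6 and Hoxa10 are shown because both genes passed the size rule, and no entry was found for Hoxb5. They come from RefSeq (GRCm38.p6), end at the annotated first exon, and carry CpG dinucleotides in capitals.
Hoxa6: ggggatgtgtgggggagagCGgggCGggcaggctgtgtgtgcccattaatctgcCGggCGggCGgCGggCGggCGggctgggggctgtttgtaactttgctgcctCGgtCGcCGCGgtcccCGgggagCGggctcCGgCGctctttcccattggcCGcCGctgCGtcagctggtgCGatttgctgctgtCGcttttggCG
Hoxa10: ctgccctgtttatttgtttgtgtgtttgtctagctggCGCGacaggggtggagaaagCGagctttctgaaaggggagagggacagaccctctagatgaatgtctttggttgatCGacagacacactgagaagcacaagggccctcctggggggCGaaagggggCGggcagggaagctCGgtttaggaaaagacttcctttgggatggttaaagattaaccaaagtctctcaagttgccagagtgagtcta
They lie at chr6:52208723-52208922 and chr6:52240855-52241104, both on the minus strand. The Hoxa6 stretch of 200 bases holds 22 CpGs, and the Hoxa10 stretch of 250 bases holds 7. Counted over the 250 bases before each RefSeq start, Hoxa6 had 24 CpGs, at percentile 88.7 of all 32851 RefSeq windows, and the start of Hoxa10 shown had 7, at percentile 55.3. A second annotated start of Hoxa10 (window chr6:52234940-52235189) had 20, at percentile 82.9. Promoter entries matched 12 of the 25 members, with 13 windows. The letters TGATNNAT, a form of site bound by PBX and HOX proteins together, were searched on both strands. They occurred in 3 of these windows (Hoxa2, Hoxb1 and Hoxb8), which is 23.1%, and in 7.68% of all windows, and not in those of Hoxa6 or Hoxa10.

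In cluster b (chromosome 11, 96194316 to 96368256), Hoxb3, Hoxb5 and Hoxb6 had higher values in the shcircSmad5 library and Hoxb9 a lower one. Hoxb5 (ENSMUSG00000038700, 96303336 to 96306121, plus strand), a patterning gene of the neck and shoulder region, had 58 and 158 counts, 2.67-fold higher (1.96 to 3.67). It was the one member of cluster b past the size rule. Hoxb6 had 108 and 179 counts, a log2 ratio of 0.70 (0.35 to 1.06). Hoxb3 had 93 and 172, a log2 ratio of 0.86 (0.48 to 1.24). Hoxb4, a gene also known from blood stem cells, lies between Hoxb3 and Hoxb5 and had 99 and 114 counts, with an interval that spanned 0 (-0.23 to 0.58). The 4 genes lie side by side and summed to 358 and 623 counts, a log2 ratio of 0.77 (0.58 to 0.96), a set chosen after its values were seen. Without Hoxb5 the ratio was 0.60. Of the exonic bases of Hoxb3, 52.9% lie under exons of the antisense gene Hoxb3os, whose counts are not analysed here. Reads of Hoxb3 may thus in part be antisense ones if strand was not used. Without Hoxb3 the ratio was 0.74.

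On the other side of Hoxb6, the values were level or lower. Hoxb7 had 154 and 144 counts (log2 ratio -0.13) and Hoxb8 had 57 and 60 (0.04), both with intervals that spanned 0. Hoxb9 (ENSMUSG00000020875, 96271457 to 96276595), a gene of the thoracic region and the mammary gland, had 1031 and 720 counts, or 26.8 and 18.4 CPM. Its log2 ratio of -0.55 (-0.69 to -0.41) did not reach 2-fold. In CPM it was the largest difference of any member, where it fell by 8.48. Hoxb13, beyond Hoxb9, had 0 and 4 counts.

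**Figure D4:**
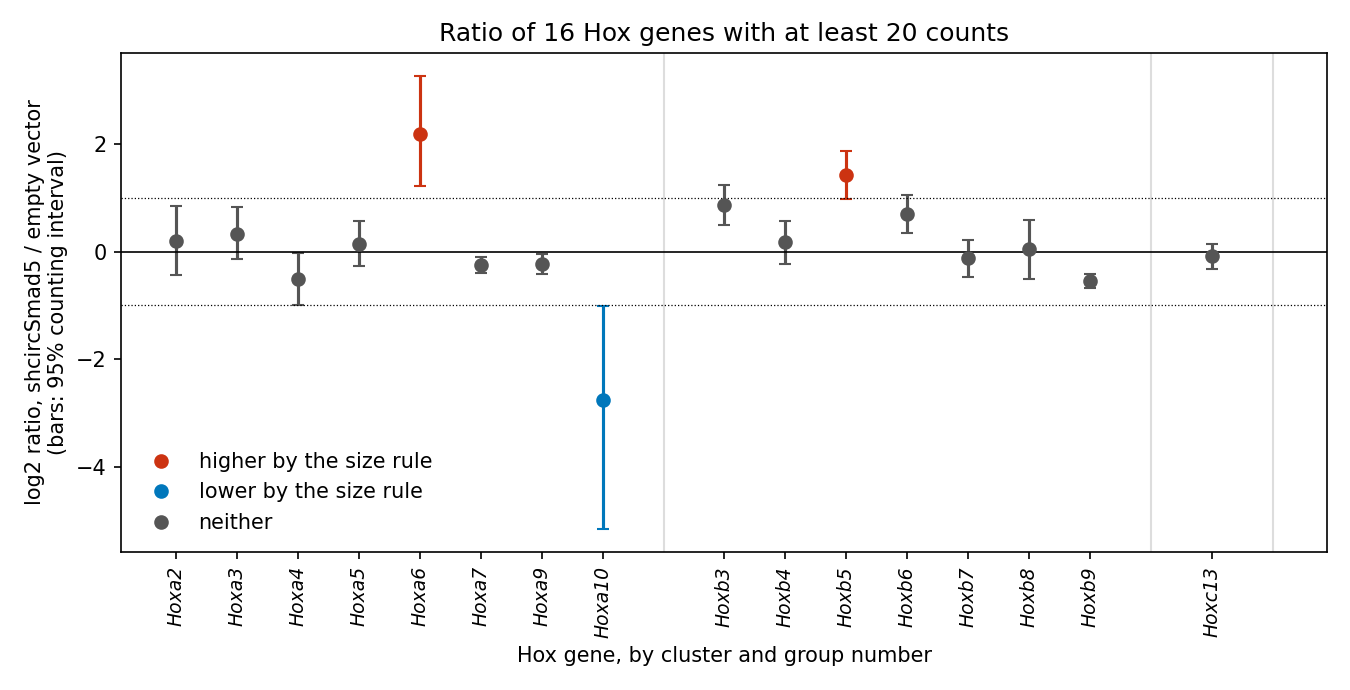
Log2 ratio (shcircSmad5 over empty vector) of 16 Hox genes with at least 20 counts, by cluster and group number, with 95% counting intervals as bars and dotted lines at 2-fold. Hoxa6 (2.18) and Hoxb5 (1.42) lie above the upper line and Hoxa10 (-2.77) below the lower one, while Hoxb3, Hoxb5 and Hoxb6 all lie above 0 and Hoxb9 below it.

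In cluster c (chromosome 15), Hoxc13 (ENSMUSG00000001655, 102921103 to 102928814) was near level, with 323 and 310 counts and a log2 ratio of -0.09 (-0.32 to 0.14). The members' chromosomes differed in their own medians, which were 0.15 on chromosome 6, 0.095 on chromosome 11, 0.20 on chromosome 15 and -0.16 on chromosome 2. With each chromosome centred at its median (a setting chosen once values were known), Hoxa6, Hoxb5 and Hoxa10 were still the members past 2-fold. The members' median log2 ratio was then 0.000226 in place of 0.15, so its offset from all genes was not kept.

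In 6 groups 2 paralogues met the minimum, and the log2 ratios of both had the same sign in all but group 4. The intervals of Hoxa3, Hoxa5, Hoxb4 and Hoxb7 spanned 0, so the signs of these members are not settled even by counting. Only in groups 6 and 9 did both intervals leave out 0, and agreement between paralogues was not tested. In group 6, Hoxa6 and Hoxb6 both had intervals above 0. In group 5, Hoxb5 was 2.67-fold higher beside 1.11-fold for Hoxa5, and in group 3 Hoxb3 had a log2 ratio of 0.86 and Hoxa3 one of 0.34. In group 7, Hoxa7 had a log2 ratio of -0.25 and Hoxb7 one of -0.13, and in group 9 both Hoxa9 and Hoxb9 had intervals below 0. In group 4, Hoxa4 had a log2 ratio of -0.51 and Hoxb4 one of 0.17. Over all 17 members, 5 intervals lay above 0, 5 below it (Hoxa4, Hoxa7, Hoxa9, Hoxa10, Hoxb9) and 7 spanned it. Among all 13596 genes with the minimum, 34.9% lay above 0 and 38.5% below, 73.3% in all.

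Only part of the noncoding genes within the clusters was read, and others, such as Hoxb3os, are not analysed here. Of the 9 read, 2 had at least 20 counts, and 1 was higher, beside 8.43% of all genes and 15.7% of those with 20 to 1031 counts. Gm53, a long noncoding gene 6589 bases from Hoxb9 that is named here after its value was seen, had the most, with 576 and 711 counts and a log2 ratio of 0.27 (0.11 to 0.43). The microRNA gene Mir196a-1, whose product is known to act on Hox messages, begins 296 bases beyond Gm53 and was not analysed here. Hoxaas3 (chromosome 6, 52175217 to 52215076, plus strand), whose span runs opposite to Hoxa4, Hoxa5, Hoxa6 and parts of Hoxa3 and Hoxa7, had 9 and 25 counts, 2.72-fold higher (1.23 to 6.62). Of its exonic bases, 30.6% lie under Hoxa3 and Hoxa7 exons.

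No partner or regulator of Hox proteins on the lists passed the size rule, beside 14.7% of all genes. That share depends on counts, and was 25.4% among genes with 20 to 1031 counts. Most genes of the Polycomb and trithorax list had more counts than that, so 14.7% is not a matched background for them. None of the 8 PBX, MEIS and PKNOX genes with the minimum passed the size rule (median log2 ratio -0.26). Meis2 and Pbx2 had log2 ratios of -0.37 and -0.42. None of 29 Polycomb, trithorax and chromatin loop genes passed (median 0.02), with Rad21, Kat6a and Dot1l at 0.14, 0.04 and 0.07. None of 9 retinoic acid genes with the minimum passed (median -0.26). Their most abundant members were the receptor genes Rxra (-0.27) and Rarg (-0.21) and the retinoic acid-degrading enzyme gene Cyp26b1 (0.57, 0.51 to 0.63).

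Genes that flank the clusters had log2 ratios between -0.86 and 1.86. Of 41 protein-coding genes within 500 kb of a cluster, 30 had the minimum, and the phosphatase gene Phospho1 (7 and 26 counts) was the 1 higher and none was lower, beside 8.43% and 6.24% of all genes. The median was 0.21, beside -0.02 over all genes. The clusters' own chromosomes had medians of 0.15 (chromosome 6), 0.095 (chromosome 11), 0.20 (chromosome 15) and -0.16 (chromosome 2). Whether the flanking genes differ from the rest of their chromosomes was not tested. Most of these flanking genes had more than 1031 counts, so the shares over all genes are not matched to them. Among other homeobox and T-box genes of regional identity, 5 of 19 with the minimum were lower and none was higher (median -0.31), beside 6.24% and 8.43% of all genes. Within 20 to 1031 counts, where most of the 19 lie, 9.69% of genes were lower and 15.7% higher. Scaled by total counts, 4 were lower and 1 was higher, since Irx3 then missed the 2-fold limit and Tbx1 (471 and 945 counts, 1.97-fold higher in the main scaling) passed it. Barx2, a hair follicle homeobox gene, was 11.5-fold lower (260 and 23 counts, 7.53 to 18.5). Prrx1, a limb mesenchyme gene, was 3.88-fold lower, Irx2 2.31-fold and Irx3 2.05-fold. Tbx18, named here after its value was seen, was 3.49-fold lower (65 and 19 counts).

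Markers of other skin cells were low in both libraries, and the sums of those of fibroblasts and endothelium were lower with shcircSmad5. The 8 dermal fibroblast markers read summed to 5.54 and 2.07 CPM. Pdgfra (161 and 62 counts) and Twist2 (52 and 15) made up nearly all of that, and Col1a1, Dcn, Dpt and Lum had 0 counts in both. Col1a2 and Col3a1 each had 0 and 2 counts, so the lower fibroblast sum rests on Pdgfra and Twist2. The 3 endothelial markers summed to 2.97 and 0.790 CPM, with Cdh5 at 0 in both. The 2 immune markers read summed to 0.208 and 0 CPM, with Lyz2 at 0 in both, and the 2 melanocyte markers read summed to 0.625 and 0.816 CPM. The part of such cells in the Hox values was not tested.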

How the data were processed

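Gene-level RNA sequencing of total RNA (3 µg, ribosomal RNA removed, strand-keeping library kit, per the labels' protocols) gave 1 library per group. The authors deposited raw read counts per gene and FPKM values, per the file headers. HISAT2 and HTSeq 0.13.5 with GRCm38 and GRCh38 are named in the submitters' processing notes without roles. For the annotation, the strand setting and reads with several matches, nothing is stated in these sources. The deposited FPKM equalled counts divided by total and a whole gene length (within 0.001 bases) for 100% of genes above 0, and 0 value columns were unmatched.

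Counts were scaled by TMM (edgeR 4.0.16, R 4.3.3) over all 22383 genes. Each ratio has a 95% interval (exact, Clopper-Pearson, scipy 1.17.1) computed from how its counts split between libraries. No test was run, since each group had 1 library. A count of 0 was set to 3. The size rule was tried on simulated Poisson counts, the same error that the intervals assume. The simulation held no variation between lines or libraries, so it cannot show how the rule behaves in the presence of such variation. Coordinates and exon overlaps came from GENCODE M21 and promoters from RefSeq.

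The members, lists and settings were chosen with earlier results of these data known. Named are the Hox genes and, from each other list, the 4 most counted members past the size rule at most, or the 3 most counted ones if none passed it. Values of 1 Hox gene and 1 partner gene are not reported here, though sums and counts include them. The alternatives were scaling by total counts, by the upper quartile or by size factors of DESeq2 1.42.0, minimums of 10 and 100 counts or none, fold limits of 1.5 and 3, and log2(FPKM + 0.1).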

Additional observations from a re-analysis of the deposited data

How the results depend on the processing

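No paired analysis was possible because each group had 1 library, and for the same reason no library could be left out. Total counts, DESeq2 size factors and upper quartile scaling shifted all log2 ratios by 0.06, 0.01 and 0.06, and the same 3 Hox genes passed the size rule under each. Of 85 values for single members over 5 alternatives, 1 changed sign (Hoxb8), and all 85 stayed within the member's counting interval. The largest shift was 1.72 (Hoxa10, from -2.77 to -1.05 with log2(FPKM + 0.1)). Higher calls numbered 1 with a minimum of 100 counts (Hoxb5), 4 at 1.5-fold (with Hoxb3 and Hoxb6) and 1 at 3-fold (Hoxa6). Lower calls numbered 0 with a minimum of 100 counts and 2 with no minimum (with Hoxc6). Shares of all genes called were not computed for these other minimums. With FPKM of at least 1 in place of 20 counts, 9 rather than 16 members counted as detected in the empty vector library and 13 rather than 16 in the shcircSmad5 library.

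The log2 ratio of the Hox total was 0.018 from summed FPKM, -0.21 with each chromosome centred, 0.15 as the median of members and 0.16 without Hoxb9 and Hoxa7. That of cluster a was 0.072, -0.23 and 0.15 under the first 3 of these, and that of cluster b was 0.17 as a median. Groups 1 to 6 were at 0.34 with chromosomes centred and 0.30 as a median, and groups 7 to 9 at -0.47 and -0.23, or -0.18 without Hoxb9 and Hoxa7. Hoxb7 to Hoxb9 were at -0.46 as a sum and -0.13 as a median. At 1.5-fold, where 26.8% of all genes were called, 1 of 8 PBX, MEIS and PKNOX genes was lower. Of 29 Polycomb and trithorax genes, 1 was higher. Calls numbered 5 among 30 flanking genes (4 higher, 1 lower) and 9 among 19 other regional genes (1 higher, 8 lower). With a minimum of 100 counts, calls numbered 0 among noncoding genes and 0 among flanking genes. The share of all genes called at that minimum was not computed. Depth limits the members unequally: Hoxb8 (57 and 60 counts) has an interval of -0.50 to 0.59, and Hoxb9 (1031 and 720) one of -0.69 to -0.41.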
